A study of Danio rerio with 7 samples.

Results

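A set of 9 genes of epithelial cells was followed through sorted sox10-positive cells of the zebrafish (Danio rerio) embryo. The genes were taken by name from the deposited table, and all 9 were found among its 33735 genes: the adhesion gene epcam, the transcription factor gene tp63, the keratin genes krt4, krt5, krt8, krt18 and KRT18 (2 of 3), and the claudin genes cldnb and cldne. The table holds 6 libraries, 2 for each of 3 groups. The first group is embryos injected with a morpholino against ctr9 and kept in 32 µM progesterone, the second is embryos with the same morpholino in DMSO, and the third is uninjected embryos in DMSO. Ctr9 is part of the PAF1 complex, a companion of transcribing RNA polymerase II, and a morpholino is a synthetic oligonucleotide that binds an mRNA and keeps it from being spliced or translated. Embryos were raised at 28 °C and exposed between 50% epiboly and 15 somites, when the sox10-positive cells were isolated. The labels give neither the fish strain nor the reporter used for the sort. The controls were uninjected, so the effect of injection and the effect of losing ctr9 cannot be told apart. One further sample, uninjected embryos in progesterone, was not analysed here.

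Sox10 marks neural crest cells and the otic placode. Neural crest cells leave an epithelium by an epithelial-to-mesenchymal transition, during which adhesion proteins of epithelia are usually turned down. In the fish embryo the surface is covered by the periderm, a thin outer layer rich in keratins, over a basal epidermis that depends on p63. Keratin filaments are built from pairs of a type II and a type I keratin, and claudins form the strands of tight junctions between epithelial cells. These are bulk libraries, so a few epithelial cells among the sorted cells and a low level in every sorted cell cannot be told apart.

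Sox10 mRNA stood at 191.1 and 60.0 FPKM in progesterone morphants, at 160.2 and 125.5 FPKM in DMSO morphants and at 134.1 and 146.7 FPKM in uninjected embryos. FPKM count fragments relative to transcript length and to library size, and the sequenced depth is unknown. Ctr9 mRNA stood at 26.2 and 20.6 FPKM, at 42.2 and 36.7 FPKM and at 16.8 and 19.95 FPKM in the same groups. A morpholino need not lower the mRNA of its target, so these values do not check the injection. The progesterone library of experiment 2 stood apart, with a summed FPKM of 218008 against 356101 to 366905 in the other 5, and with 13.6% of the 13145 genes tested listed at 0 against 1.31% to 5.99%. The median of all genes tested moved by -0.58 on the log2 scale between progesterone and DMSO morphants, and by -0.07 between DMSO morphants and uninjected embryos.

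The 9 genes ranged from abundant mRNAs to the lower end of the table. In uninjected embryos the order of mean FPKM, which is per length and can be compared between genes, was krt8 at 101.3 ± 1.57, krt18 at 19.3 ± 0.0649, krt4 at 16.8 ± 0.937, KRT18 (2 of 3) at 12.8 ± 1.67 and krt5 at 6.32 ± 2.69 (SD, n = 2). The low members followed, with cldnb at 1.40 ± 0.355, tp63 at 1.02 ± 0.964, epcam at 0.678 ± 0.239 and cldne at 0.0204 ± 0.0289 (SD, n = 2). Krt8 was therefore far above the rest, while the spread of tp63 took in both cldnb and epcam. With a rank of 427 and 464 from the top of all genes in the uninjected libraries, krt8 belonged to the abundant mRNAs of the sorted cells. Together the 9 genes summed to 74.9 and 83.9 FPKM in progesterone morphants, to 108.4 and 174.4 FPKM in DMSO morphants and to 157.6 and 161.5 FPKM in uninjected embryos.

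**Figure D1:**
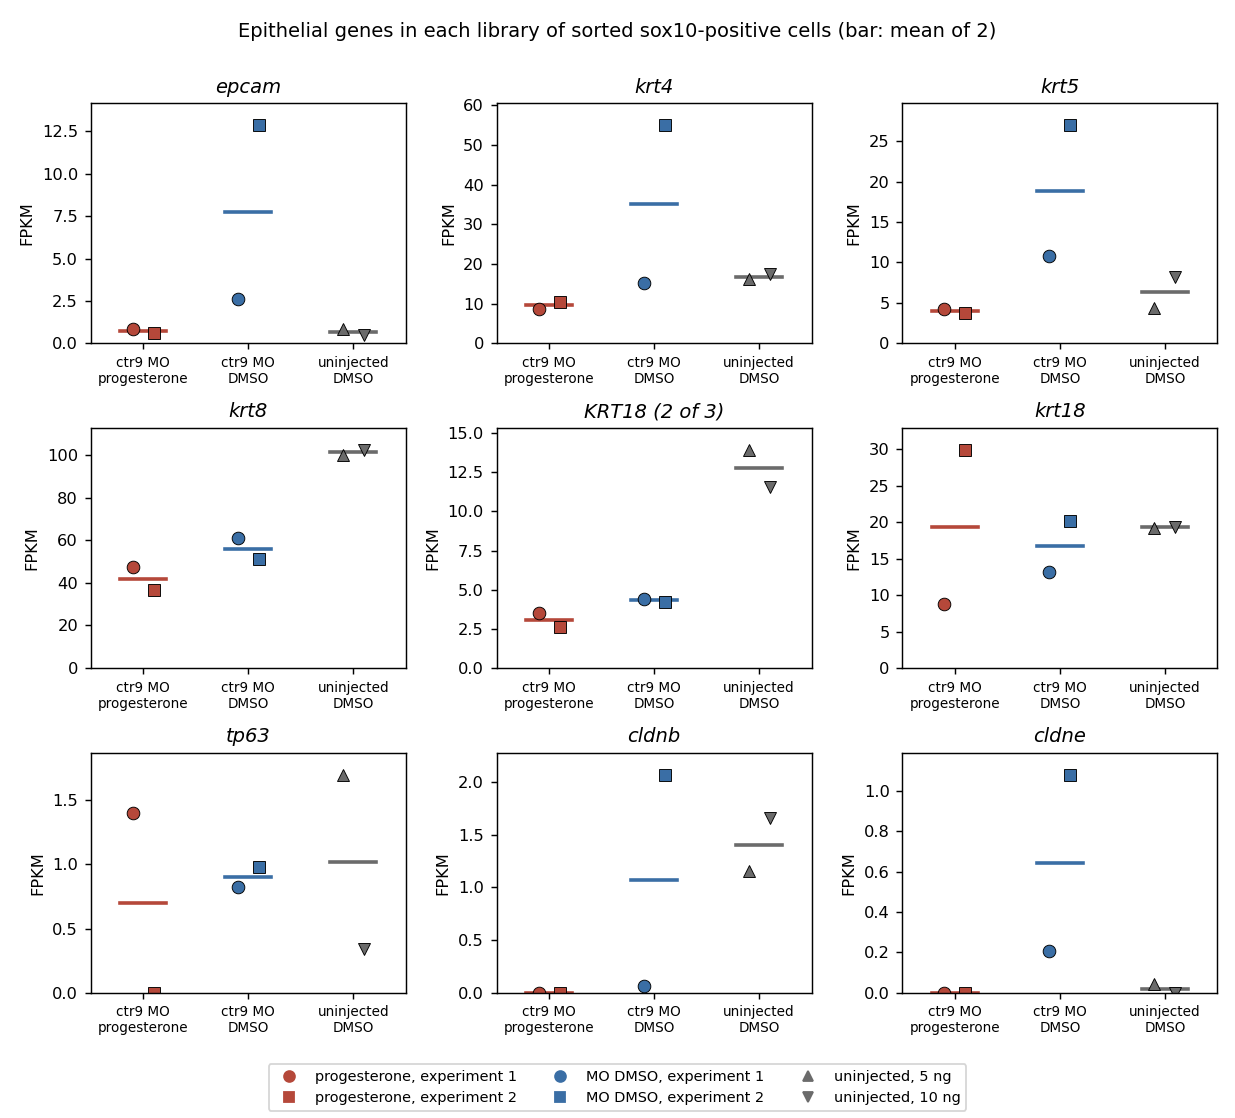
FPKM (linear axis from 0) of each of the 9 epithelial genes in the 6 libraries, with the mean of each group of 2 as a bar. Epcam, krt4 and krt5 are highest in the DMSO morphant library of experiment 2, whereas krt8 and KRT18 (2 of 3) are highest in both uninjected libraries.

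As a description, 2 patterns stood out across the libraries. Epcam and krt5 were higher in both DMSO morphant libraries than in any other, and highest in that of experiment 2. Krt4 was high in the DMSO morphant library of experiment 2 only. Krt8 and KRT18 (2 of 3) were highest in uninjected embryos and lower in all 4 morphant libraries. Krt18, tp63 and cldnb followed neither. The fit across all genes tested 6 of the 9, since tp63, cldnb and cldne had a mean below 1 FPKM, and it called 0 members in any of the 3 comparisons. Epcam was below 1 FPKM in both progesterone and both uninjected libraries and passed this limit only through the DMSO morphants. Its fold changes against them, and the counts and medians of the 6 that include epcam, are not independent of that limit.

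Between DMSO morphants and uninjected embryos, the morpholino comparison, 0 of 6 tested members passed limma at an adjusted p of at most 0.05, beside 0.0152% of all genes tested. At an unadjusted p under 0.05, 2 members were higher and 2 lower, beside 1.4% and 2.67% of all genes (4.07% in either direction). With median-ratio scaling the members' counts were again 2 and 2, beside 1.77% and 2.3%. The groups of 2 members did not overlap upwards and those of 2 did not overlap downwards, beside 16.5% and 26.2% of all genes on the deposited scale, and again 2 and 2, beside 23% and 22%, with median-ratio scaling. The median log2 fold change of the 6 members was 0.27, against -0.07 for all genes tested, and 3 of the 6 lay above that median.

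Epcam encodes a cell surface adhesion protein of epithelia. It stood at 2.60 and 12.9 FPKM in DMSO morphants, against 0.847 and 0.509 FPKM in uninjected embryos. Both morphant libraries lay above both uninjected ones, as did 16.5% of all genes tested, but the 2 morphant libraries differed from each other by 4.94-fold. Epcam passed the limit of a mean of 1 FPKM only through these morphant libraries, so its fold change was not independent of the limit. The log2 fold change was 2.08 ± 0.67 (SE, n = 2 against 2, limma adjusted p = 1). Without the library of experiment 2 it was 1.11 (adjusted p = 1), and without that of experiment 1 it was 3.05 (adjusted p = 0.753). Among all genes, epcam lay at percentile 70.8 and 90.8 of the morphant libraries and at percentile 59.3 and 53.4 of the uninjected ones.

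The type II keratin genes krt4 and krt5 are expressed in the periderm of the fish embryo. Krt5 stood at 10.7 and 27.0 FPKM in DMSO morphants, against 4.42 and 8.22 FPKM in uninjected embryos, with no overlap. Its log2 fold change was 1.36 ± 0.52 (SE, n = 2 against 2, limma adjusted p = 1). Leaving out experiment 2 brought it to 0.73, and leaving out experiment 1 to 1.98. Krt4 stood at 15.2 and 55.0 FPKM in DMSO morphants, against 16.1 and 17.5 FPKM in uninjected embryos. Only the library of experiment 2 was high. The log2 fold change of krt4 was 0.76 ± 0.58 (limma adjusted p = 1), and without that library it was -0.14.

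Krt8, the most abundant of the 9, encodes a type II keratin of simple epithelia. It stood at 61.1 and 51.0 FPKM in DMSO morphants, against 100.2 and 102.4 FPKM in uninjected embryos. Both morphant libraries lay below both uninjected ones, as did 26.2% of all genes tested. The log2 fold change was -0.85 ± 0.28 (SE, n = 2 against 2, limma adjusted p = 1), and it lay between -0.98 and -0.72 with any 1 library left out.

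KRT18 (2 of 3), which the current name table calls krt18b, is a type I keratin gene of the kind that pairs with krt8. It stood at 4.42 and 4.21 FPKM in DMSO morphants, against 13.9 and 11.6 FPKM in uninjected embryos, so the groups were apart and the 2 morphant libraries were close together. On the log2 scale the fold change was -1.37 ± 0.34 (limma adjusted p = 1), between -1.49 and -1.24 with any 1 library left out. Krt18, called krt18a.1 in the name table, stood at 13.2 and 20.2 FPKM in DMSO morphants, against 19.2 and 19.3 FPKM in uninjected embryos. The groups of krt18 overlapped, with a log2 fold change of -0.22 ± 0.57 (limma adjusted p = 1). The remaining copy, KRT18 (3 of 3), looked at after the values were seen, was at most 0.622 FPKM in any library. The 3 copies are paralogs, and no source used here says how reads were divided between them, so the split among them is uncertain.

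The 3 low members were described without a test. Tp63, the transcription factor of basal epidermis, stood at 0.823 and 0.977 FPKM in DMSO morphants, against 1.70 and 0.337 FPKM in uninjected embryos. The groups overlapped. The claudin gene cldnb, known from the skin and the lateral line, stood at 0.0589 and 2.07 FPKM in DMSO morphants, against 1.15 and 1.65 FPKM in uninjected embryos, so the uninjected values lay between those of the 2 morphant libraries. Cldne, a claudin gene of the outer skin layer, stood at 0.204 and 1.08 FPKM in DMSO morphants, against 0.0409 and 0 FPKM in uninjected embryos. Both morphant values of cldne were higher, at levels near the lower end of the table.

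**Figure D2:**
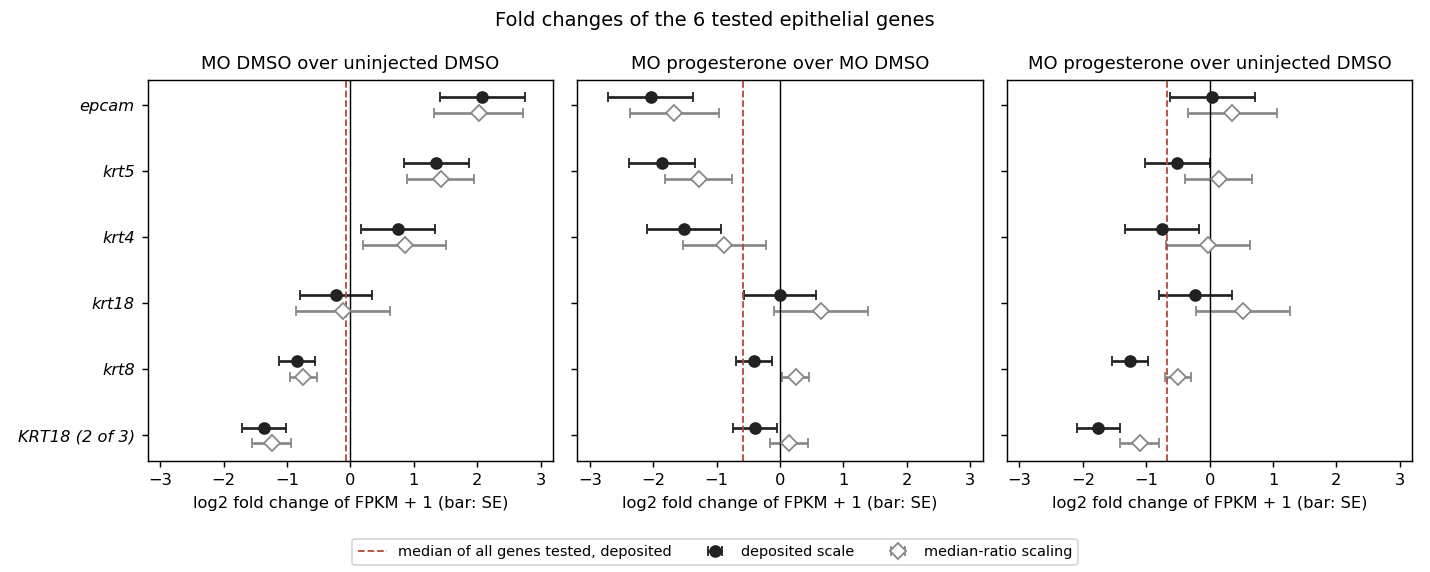
Log2 fold change of FPKM + 1 with its standard error for the 6 tested genes in the 3 comparisons, on the deposited scale (filled) and with median-ratio scaling (open). The dashed line is the median of all genes tested, at -0.07, -0.58 and -0.67. The filled points of krt8 and KRT18 (2 of 3) lie left of it in the left and right panel. So does krt18 in the left panel and krt4 in the right one. In the middle panel epcam, krt5 and krt4 lie left of it.

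Between progesterone and DMSO morphants, the progesterone comparison, 0 of 6 tested members passed limma at an adjusted p of at most 0.05, beside 0% of all genes tested. At an unadjusted p under 0.05, 0 members were higher and 3 lower, beside 1.88% and 19.8% of all genes. With median-ratio scaling, which removes the shared shift of the progesterone libraries, 0 members were higher and 0 lower at that level, beside 7.66% and 9.13% of all genes. This comparison shares the DMSO morphant libraries with the morpholino comparison. Of the 6 tested members, 5 were lower and 0 higher in both progesterone libraries than in both DMSO libraries, where 44.5% and 6.87% of all genes were. With median-ratio scaling 2 were lower without overlap, epcam and krt5, and 1 was higher, krt8, beside 23.4% and 20.8% of all genes.

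Epcam stood at 0.856 and 0.589 FPKM in progesterone morphants, against 2.60 and 12.9 FPKM in DMSO morphants. Both progesterone libraries lay below both DMSO libraries, as did 44.5% of all genes tested. On the log2 scale the fold change was -2.04 ± 0.67 (SE, n = 2 against 2, limma adjusted p = 0.177), which is -1.46 relative to the median of all genes. Without the DMSO library of experiment 2 it was -1.07. Krt5 stood at 4.28 and 3.70 FPKM against 10.7 and 27.0 FPKM in DMSO morphants, also without overlap. Its log2 fold change was -1.86 ± 0.52 (limma adjusted p = 0.155), or -1.28 relative to the median, and -1.24 without the DMSO library of experiment 2. Krt4 stood at 8.76 and 10.4 FPKM against 15.2 and 55.0 FPKM in DMSO morphants, a log2 fold change of -1.51 ± 0.58 (limma adjusted p = 0.212), or -0.93 relative to the median. Without that same DMSO library the value for krt4 was -0.61, close to the median of all genes, and with median-ratio scaling the krt4 groups overlapped.

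Krt8 stood at 47.3 and 36.6 FPKM in progesterone morphants, against 61.1 and 51.0 FPKM in DMSO morphants. The log2 fold change of -0.41 ± 0.28 (limma adjusted p = 0.4) was less than the shift of the median gene and turned to 0.25 with median-ratio scaling. KRT18 (2 of 3) stood at 3.52 and 2.65 FPKM against 4.42 and 4.21 FPKM in DMSO morphants, with a log2 fold change of -0.39 ± 0.34 (limma adjusted p = 0.506), and it too turned, to 0.14, with that scaling. The direction of both genes in this comparison therefore hung on the scale. Krt18 stood at 8.75 and 29.9 FPKM in progesterone morphants, the lowest and the highest value of all 6 libraries, against 13.2 and 20.2 FPKM in DMSO morphants. Its log2 fold change was 0.00 ± 0.57 (limma adjusted p = 1). This value was 0.64 with median-ratio scaling, and leaving out 1 progesterone library moved it to 0.83 (without experiment 1) or -0.83 (without experiment 2).

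Both claudin genes were listed at 0 in both progesterone libraries. Cldnb had 0.0589 and 2.07 FPKM, and cldne 0.204 and 1.08 FPKM, in DMSO morphants. Tp63 stood at 1.40 and 0 FPKM in progesterone morphants, against 0.823 and 0.977 FPKM in DMSO morphants. Among the 13145 tested genes, which do not include these 3, 788 and 1790 were listed at 0 in progesterone morphants, against 268 and 301 in DMSO morphants. The claudin genes lie below the level of the tested genes. Over all 33735 genes, zeros began at rank 16342 and 14210 from the top in the progesterone libraries, so a value of 0 was common there. The part of such zeros in the claudin values was not tested.

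Between progesterone morphants and uninjected embryos, 0 of 6 tested members passed limma at an adjusted p of at most 0.05, beside 0.0152% of all genes tested on the deposited scale (0 higher and 2 lower) and 0.101% with median-ratio scaling (10 higher and 3 lower). At an unadjusted p under 0.05, 0 members were higher and 2 lower, beside 1.74% and 23.1% of all genes (24.8% in either direction). With median-ratio scaling 0 members were higher and 1 lower, beside 7.66% and 8.38%. Those 2 members were krt8 and KRT18 (2 of 3), and the 1 that was left was KRT18 (2 of 3). Of the 6 tested members, 4 were lower and 0 higher without overlap, beside 53.1% and 5.91% of all genes tested. With median-ratio scaling 2 were lower without overlap, krt8 and KRT18 (2 of 3), and 1 was higher, epcam, beside 25.8% and 22.1% of all genes.

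Krt8 stood at 47.3 and 36.6 FPKM in progesterone morphants, against 100.2 and 102.4 FPKM in uninjected embryos, without overlap. Its log2 fold change was -1.26 ± 0.28 (limma adjusted p = 0.117), or -0.59 relative to the median gene. KRT18 (2 of 3) stood at 3.52 and 2.65 FPKM in progesterone morphants, against 13.9 and 11.6 FPKM in uninjected embryos, with a log2 fold change of -1.76 ± 0.34 (limma adjusted p = 0.111), or -1.09 relative to the median. Without the progesterone library of experiment 1 both genes passed, krt8 at -1.44 (adjusted p = 0.00829) and KRT18 (2 of 3) at -1.91 (adjusted p = 0.00978). In that fit, however, 4555 genes passed in all, 4312 of them lower, and the progesterone group was the single library that stood apart, assumed to vary like the other groups.

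None of epcam, krt4 and krt5 passed here, nor did krt18. Epcam had 0.856 and 0.589 FPKM in progesterone morphants, against 0.847 and 0.509 FPKM in uninjected embryos, a log2 fold change of 0.04 ± 0.67 (limma adjusted p = 0.975). Krt5 had a log2 fold change of -0.51 ± 0.52 and krt4 of -0.75 ± 0.58 (limma adjusted p = 0.544 and 0.426), both close to the median of all genes, -0.67. Both lay below the uninjected libraries without overlap on the deposited scale, and with median-ratio scaling krt5 turned to 0.14 and krt4 stood at -0.03. Krt18 overlapped between the groups, at -0.22 ± 0.57 (limma adjusted p = 0.816), and turned to 0.52 with that scaling.

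Ratios between genes of 1 library do not depend on how libraries are scaled. The ratio of krt8 to KRT18 (2 of 3) was 13.5 and 13.8 in progesterone morphants, 13.8 and 12.1 in DMSO morphants, and 7.19 and 8.85 in uninjected embryos. All 4 morphant libraries thus lay above both uninjected ones, which was noticed after the values were seen and is given with no test. The share of all gene pairs whose ratios lie apart in this way was not counted. The ratio of krt18 to krt8 was 0.185 and 0.817 in progesterone morphants, 0.216 and 0.396 in DMSO morphants, and 0.192 and 0.189 in uninjected embryos, so both morphant libraries of experiment 2 were higher than the other 4 libraries. The ratio of krt4 to krt8 was 0.185 and 0.285, then 0.248 and 1.08, and then 0.161 and 0.171 in the same groups. In the DMSO morphant library of experiment 2 krt4 therefore reached the level of krt8. Krt8 made up 29.3% of the summed FPKM of the 9 genes in that library and between 43.6% and 63.5% in the other 5.

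**Figure D3:**
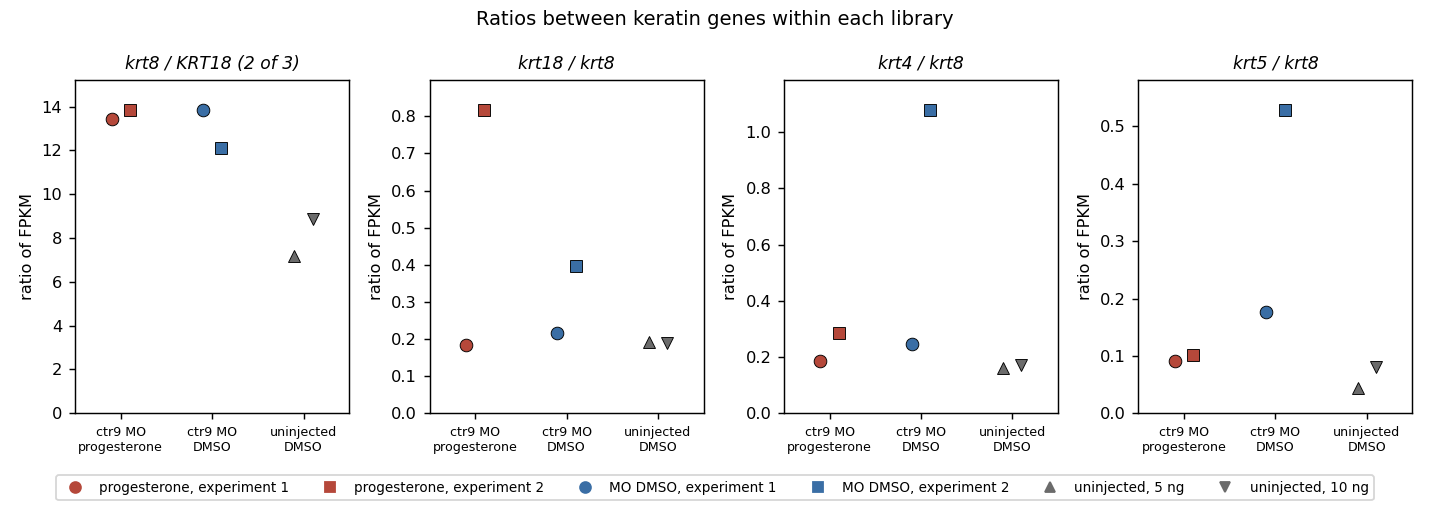
Ratios of FPKM between keratin genes within each of the 6 libraries, on linear axes from 0, by group. Krt8 over KRT18 (2 of 3) is between 12.1 and 13.8 in the 4 morphant libraries and 7.19 and 8.85 in the uninjected ones, and krt4 and krt5 over krt8 peak in the DMSO morphant library of experiment 2.

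The libraries of a group differed for epcam, krt4 and krt5 mainly in DMSO morphants. On the log2(FPKM + 1) scale, experiment 2 exceeded experiment 1 by 1.94 for epcam, 1.79 for krt4, 1.25 for krt5, 1.54 for cldnb and 0.79 for cldne. Of the 6 tested members, 3 differed by more than 1, all upwards, beside 5.23% of all genes tested (8.8% differed by more than 1 downwards). The same differences between the progesterone libraries were between -0.22 and 0.23 for epcam, krt4 and krt5. In uninjected embryos the 10 ng library exceeded the 5 ng library by 0.77 for krt5, and epcam and krt4 differed by -0.29 and 0.11. No tested member differed by more than 1 there, as 4.09% of all genes did upwards and 2.74% downwards. Krt18 differed by 1.67 between the progesterone libraries, where 7.01% of all genes differed by more than 1 in that direction.

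**Figure D4:**
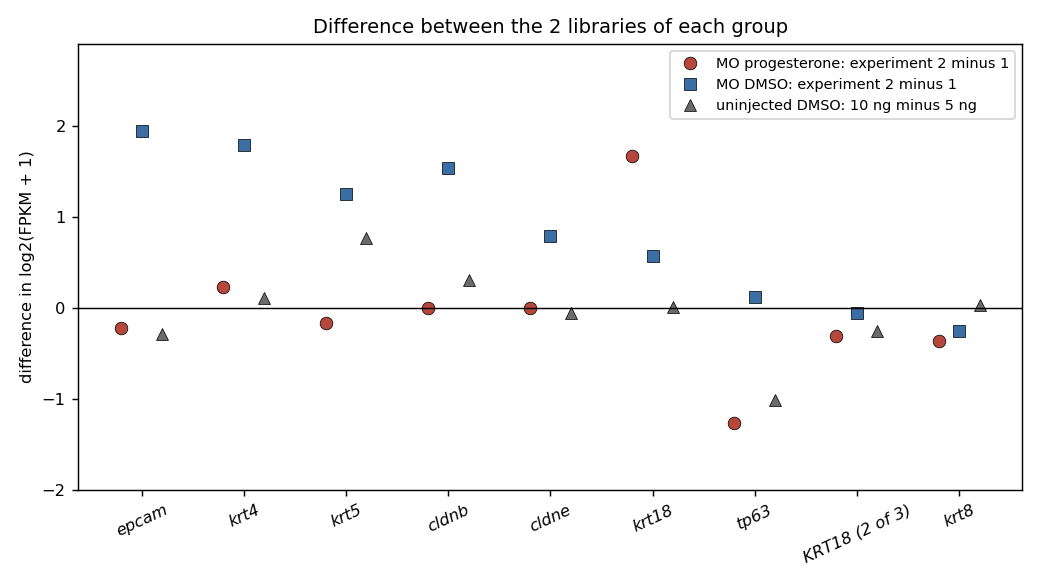
Difference in log2(FPKM + 1) between the 2 libraries of each group for the 9 genes, as experiment 2 minus experiment 1 in morphants and 10 ng minus 5 ng in uninjected embryos. The DMSO morphant points of epcam, krt4, krt5 and cldnb lie above 1, and those of krt8 and KRT18 (2 of 3) lie near 0.

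Markers of other cell types were summed beside these values, and limma passed 0 genes of any such list. Of 23 periderm markers, 20 are not among the 9 genes. These 20 summed to 16.4 and 15.4 FPKM in progesterone morphants, 21.1 and 58.2 FPKM in DMSO morphants and 21.4 and 17.7 FPKM in uninjected embryos, with 9 and 13, 7 and 5, and 5 and 4 of them at 0. In the DMSO morphant library of experiment 2, 14 of the 20 were higher than in experiment 1, 3 were lower and 3 were at 0 in both. Of the higher ones, the type I keratin genes cyt1 and cyt1l stood at 20.4 and 16.5 FPKM in experiment 2 against 5.25 and 7.48 FPKM in experiment 1. Anxa1c, an annexin gene, stood at 2.67 against 0 FPKM, and evpla, which encodes the cell envelope protein envoplakin, at 2.62 against 0.634 FPKM. The lower ones were zgc:165571 at 0 against 1.16 FPKM, icn at 0.413 against 0.875 FPKM and cldnf at 0 against 0.0341 FPKM. The median difference of all genes tested between these libraries was -0.15 in log2(FPKM + 1). The share of all genes that were higher was not counted. Rhcga, ponzr2 and ponzr5 were at 0 in every library. The part of periderm cells in the values of epcam, krt4, krt5 and cldne was not tested.

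Basal epidermis markers other than tp63, 13 genes, summed to 121.5 and 40.2 FPKM in progesterone morphants, 102.7 and 107.0 FPKM in DMSO morphants and 52.5 and 68.1 FPKM in uninjected embryos, and most of this was hmcn2. Notochord markers other than krt8 and krt18, 11 genes, summed to 54.1 and 58.2 FPKM, to 69.7 and 82.3 FPKM and to 50.3 and 59.8 FPKM in the same groups. Their sum was highest in DMSO morphants on the deposited scale only. With median-ratio scaling it was 58.3 and 99.8 in progesterone morphants, 55.7 and 74.7 in DMSO morphants and 41.7 and 45.3 in uninjected embryos. The part of notochord cells in the krt8 and KRT18 (2 of 3) values was not tested. The 13 otic markers summed to 40.0 and 28.8 FPKM in progesterone morphants, 46.9 and 37.5 FPKM in DMSO morphants and 91.5 and 77.6 FPKM in uninjected embryos. Both uninjected sums were the highest, as with krt8, while the progesterone and DMSO morphant sums overlapped. With median-ratio scaling these were 43.1 and 49.3 against 37.5 and 34.1. Single markers differed: oc90 stood at 16.9 and 12.7 FPKM in progesterone against 7.12 and 5.02 FPKM in DMSO morphants. Stm stood at 0.881 and 0.380 against 7.28 and 8.01 FPKM. The part of otic cells in the krt8 and KRT18 (2 of 3) values was not tested. The 21 neural crest markers summed to 886.5 and 378.1 FPKM in progesterone morphants, 638.6 and 576.5 FPKM in DMSO morphants and 620.2 and 695.5 FPKM in uninjected embryos, and of them tfec was at 0 in every library. The 11 lateral line and placode markers other than cldnb summed to 94.2 and 21.5 FPKM in progesterone morphants, 88.9 and 57.6 FPKM in DMSO morphants and 74.1 and 76.1 FPKM in uninjected embryos. The 13 ionocyte markers summed to 12.01 and 7.97 FPKM in progesterone morphants, 22.1 and 19.7 FPKM in DMSO morphants and 16.1 and 15.9 FPKM in uninjected embryos. Among them foxi1, a forkhead gene of ionocyte precursors, stood at 1.59 and 2.32 FPKM, at 1.63 and 6.38 FPKM and at 0 and 0 FPKM in the same groups. The 12 muscle markers summed to at most 5.91 FPKM, in the DMSO morphant library of experiment 2. The 9 hatching gland markers summed to 14.1 and 2.43 FPKM in progesterone morphants, 20.1 and 29.0 FPKM in DMSO morphants and 28.3 and 17.2 FPKM in uninjected embryos. The part of these cells in the members' values was not tested.

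**Figure D5:**
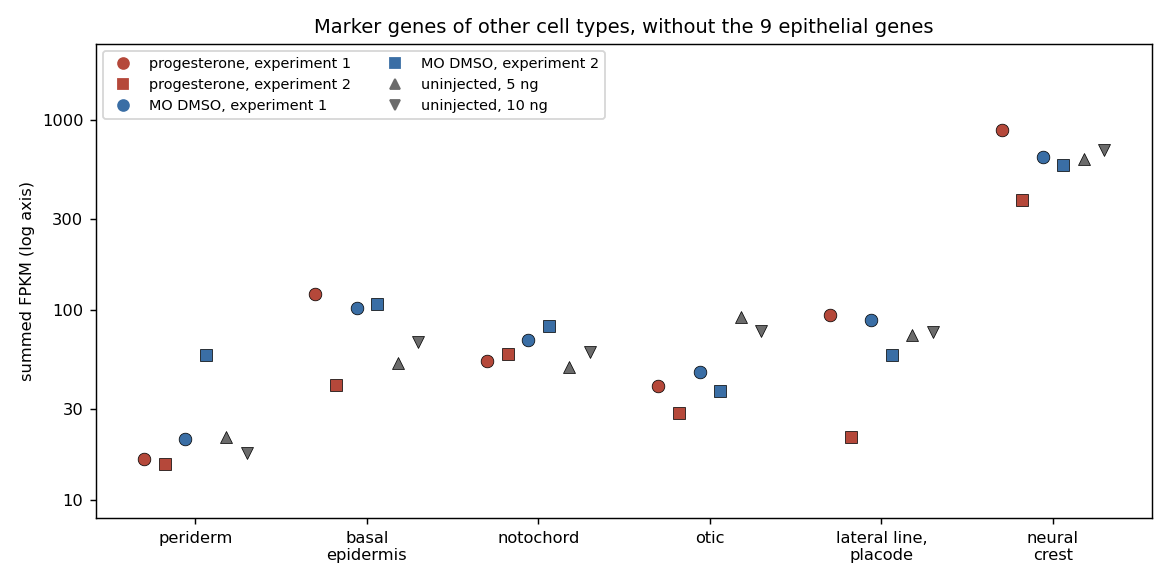
Summed FPKM (log axis) of marker genes of 6 cell types in the 6 libraries, with the 9 epithelial genes left out; ionocyte, muscle and hatching gland markers are not plotted. The periderm sum is 58.2 FPKM in the DMSO morphant library of experiment 2 and between 15.4 and 21.4 FPKM in the other 5, and the otic sum is highest in uninjected embryos.

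Related genes were taken from 8 lists, of which 140 genes were found and 66 tested. Of these 66, limma passed 0 in each of the 3 comparisons. At an unadjusted p under 0.05, 3 were higher and 2 lower between DMSO morphants and uninjected embryos, 0 and 13 between progesterone and DMSO morphants, and 0 and 8 between progesterone morphants and uninjected embryos. These make up 7.58%, 19.7% and 12.1% of the 66, beside 4.07%, 21.7% and 24.8% of all genes tested. With median-ratio scaling, which left 63 tested, the counts were 2 and 2, 4 and 5, and 6 and 1, or 6.35%, 14.3% and 11.1%, beside 4.07%, 16.8% and 16% of all genes. On the deposited scale their median log2 fold changes were 0.04, -0.61 and -0.59, beside -0.07, -0.58 and -0.67 for all genes tested.

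Of the other keratin genes, 14 were found and 5 tested, and all 5 lay above the median of all genes between DMSO morphants and uninjected embryos (median 0.63). The median value was that of cyt1, at 5.25 and 20.4 FPKM in DMSO morphants against 6.88 and 6.12 FPKM in uninjected embryos. Only its library of experiment 2 was high. The other tested keratin genes were higher in both DMSO morphant libraries, as were 16.5% of all genes tested. The type I keratin gene cyt1l had the largest value, 1.12 ± 0.47, and zgc:109868, now named krt92, the lowest, 0.26 ± 0.89. Between progesterone and DMSO morphants 1 of the 5 lay above the median of all genes, with cyt1l lowest at -1.51 ± 0.47 and zgc:92061, now krt97, highest at -0.38 ± 0.44. Between progesterone morphants and uninjected embryos krt17 was highest at 0.48 ± 0.88 and cyt1 lowest at -0.48 ± 0.70.

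Of the other claudin genes, 26 were found and 7 tested, with a median of 0.05 between DMSO morphants and uninjected embryos. Cldn5a, a claudin gene known from brain ventricle and vessel barriers, stood at 8.02 and 16.6 FPKM in DMSO morphants against 4.60 and 4.93 FPKM in uninjected embryos (log2 fold change 1.13 ± 0.42), and cldn19 was lowest at -0.18 ± 0.74. Between progesterone and DMSO morphants the median of the 7 was -0.90. Cldn15b was lowest there, at 0.536 and 0 FPKM against 2.65 and 3.37 FPKM in DMSO morphants (-1.69 ± 0.45), and cldn19 highest at -0.38 ± 0.74. Cldn10b was lowest between progesterone morphants and uninjected embryos, at -1.34 ± 0.47.

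Other tight junction genes numbered 22 found and 14 tested, with medians of 0.09, -0.74 and -0.68 in the 3 comparisons. F11r, which encodes a junctional adhesion molecule, was listed at 0 in both progesterone libraries and stood at 1.96 and 3.45 FPKM in DMSO morphants and at 0.543 and 0.610 FPKM in uninjected embryos, so that both DMSO morphant libraries were the highest. Its log2 fold changes were 1.204 ± 0.46 in the morpholino comparison and -1.86 ± 0.46 in the progesterone comparison. Like epcam, f11r passed the limit of a mean of 1 FPKM only through the DMSO morphants, so these values are not independent of that limit. On the deposited scale marveld1, a gene of the MARVEL domain family, followed the order of krt8. It had 13.5 and 12.8 FPKM in progesterone morphants, 21.1 and 21.4 FPKM in DMSO morphants and 36.1 and 33.9 FPKM in uninjected embryos. With median-ratio scaling krt8 itself was higher in progesterone than in DMSO morphants. The log2 fold change of marveld1 was -1.35 ± 0.28 between progesterone morphants and uninjected embryos (limma adjusted p = 0.116). The median of all genes tested was -0.67 there. Cgnl1, which encodes paracingulin, had the highest log2 fold change of progesterone morphants, 0.40 ± 0.34 against DMSO morphants and 0.63 ± 0.34 against uninjected embryos. Its 19.7 and 29.7 FPKM in progesterone morphants overlapped with 16.2 and 20.4 FPKM in DMSO morphants.

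Adherens junction genes numbered 12 found and 10 tested. Cdh1, the epithelial cadherin, stood at 5.69 and 4.21 FPKM in progesterone morphants, 11.4 and 11.9 FPKM in DMSO morphants and 8.77 and 12.6 FPKM in uninjected embryos, and it is named here after its values were seen. By the rule, ctnnb2, a beta-catenin gene, was highest in the morpholino comparison (0.38 ± 0.26) and ctnna2, an alpha-catenin gene, lowest (-0.64 ± 0.48), while jupa, a plakoglobin gene, was lowest in the progesterone comparison (-1.20 ± 0.49). A pair of entries named pvrl1b, a nectin gene, held the other extremes. Desmosome and hemidesmosome genes numbered 17 found and 5 tested. Pleca, a plectin gene, whose product ties keratin filaments to junctions, stood at 4.72 and 4.88 FPKM in progesterone morphants, 3.25 and 2.52 FPKM in DMSO morphants and 8.76 and 7.05 FPKM in uninjected embryos, a log2 fold change of -1.20 ± 0.35 in the morpholino comparison (limma adjusted p = 1). The integrin gene itga6a was highest there at 0.70 ± 0.45.

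Of epithelial transcription factor genes, 24 were found and 8 tested, with medians of 0.10, -1.21 and -0.84 in the 3 comparisons. In the progesterone comparison 2 of the 8 lay above the median of all genes, gata2a (-0.40) and klf4a (-0.14). With median-ratio scaling these 2 and elf3 fell below the limit of a mean of 1 FPKM. Of the genes still tested 0 lay above the median, and the median of the list was -1.22. The values on the 2 scales thus cover different genes. Elf3, an ETS family factor of epithelia, was listed at 0 in both progesterone and both uninjected libraries and stood at 0.432 and 5.57 FPKM in DMSO morphants, again highest in experiment 2. Its log2 fold change in the morpholino comparison was 1.62 ± 0.76. Elf3 passed the limit of a mean of 1 FPKM only through the DMSO morphants, mostly the library of experiment 2. Its fold change is therefore not independent of that limit. Klf6a, a Krüppel-like factor, was lowest in that comparison, at 30.5 and 67.8 FPKM in DMSO morphants against 95.6 and 106.5 FPKM in uninjected embryos (-1.13 ± 0.57). Dlx3b, a homeobox gene of the preplacodal ectoderm, was listed at 0 in both progesterone libraries, against 6.89 and 2.38 FPKM in DMSO morphants and 7.12 and 8.75 FPKM in uninjected embryos. The grainyhead-like gene grhl3 was at 0 in 5 of 6 libraries. Of 9 genes found for the protease matriptase and for partners of it or of epcam, the tetraspanin genes cd82a and cd9b were tested. Their log2 fold changes were -0.69 ± 0.60 and -0.41 ± 0.59 in the morpholino comparison.

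Genes of the mesenchymal side, 16 found and 15 tested, had medians of -0.19, -0.06 and -0.27 in the 3 comparisons, beside -0.07, -0.58 and -0.67 for all genes. In the progesterone comparison 12 of the 15 lay above the median of all genes. Snai1b, a repressor of epithelial genes, was the highest there, at 303.1 and 101.1 FPKM against 66.5 and 103.2 FPKM in DMSO morphants (1.07 ± 0.53), and vim, which encodes vimentin, the lowest (-1.50 ± 0.48). Twist1a was lowest in the morpholino comparison, at 72.0 and 34.7 FPKM against 103.3 and 119.4 FPKM in uninjected embryos (-1.14 ± 0.59), and fn1b, a fibronectin gene, highest (1.05 ± 0.40).

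The genes most like epcam over the 6 libraries, by Pearson's r of log2(FPKM + 1), were klhl36 (0.99), EPHB3 (2 of 2) (0.99), col8a1a (0.98), cldn5a (0.98) and elf3 (0.98), and 12 genes in all had r above 0.95. Krt5 came at place 54 with 0.91 and krt4 at place 92 with 0.88. The values of krt5 and krt4 lean on 1 high library. Without the DMSO morphant library of experiment 2, r with epcam was 0.64 for krt5 and 0.17 for krt4. It was between 0.87 and 0.97 for klhl36, EPHB3 (2 of 2), col8a1a, cldn5a and elf3. These genes were picked for a high r over libraries that include the ones left, so their values do not check the likeness. Elf3 was then above 0 only in the DMSO morphant library of experiment 1, at 0.432 FPKM. The genes most like KRT18 (2 of 3) were alx4a, glb1l, rpap3, taar19c and dock11, with r between 0.98 and 0.99. In all, 88 genes had r above 0.95 with KRT18 (2 of 3). Krt8 came at place 11 with 0.98, and stayed at 0.98 without the DMSO morphant library of experiment 2. All of these are descriptions over the same 6 libraries.

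Genes that lie close together peaked in different libraries. In the RefSeq gene table of assembly GRCz12tu, used for names and order only, krt5, krt8 and krt18a.1 are direct neighbours, and krt18a.2, the current name of KRT18 (3 of 3), comes next. Krt5 was highest in DMSO morphants, its neighbour krt8 in uninjected embryos, and krt18 in a progesterone library. Krt4 and krt18b lie on another chromosome with 1 gene between them. Krt18b was highest in uninjected embryos, and krt4 in the DMSO morphant library of experiment 2 alone. Pearson's r between these 2 genes was 0.13 over all libraries and 0.81 without that library. Cldnb and cldne each lie among other claudin genes, on different chromosomes.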

How the data were processed

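RNA was depleted of ribosomal RNA, made into libraries with a low-input kit and sequenced in pairs, per the labels' protocols. The authors deposited 1 table of FPKM; the unit is given by a stray header line at its foot, which was removed (1 row). Tools named in the submitters' processing notes are cutadapt, TopHat2 2.0.11 and Cufflinks 2.2.1, with the builds Zv9 and hg19; the sources used here give no annotation version. Columns were matched to samples by name; the uninjected columns, 5 ng and 10 ng, carry no experiment number, and the labels do not explain the amounts. Nothing says that libraries of a group are separate clutches, so p-values measure the spread between these libraries. The 92 ERCC spike-ins were set apart, and depth is unknown.

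Limma 3.58.1 in R 4.3.3 (lmFit, eBayes with trend) was fitted to log2(FPKM + 1) of 13145 genes with a mean of at least 1 FPKM, with 3 groups, 3 residual degrees of freedom and Benjamini-Hochberg adjustment over all of them. Fold changes on this scale understate those of low genes. An exact permutation test of 2 against 2 cannot go below 0.333. The fit was tested on simulated data, where it recovered the direction and size of known changes but passed only some of the larger ones. Recovery in the deposited data, with their low genes and the progesterone library that stood apart, was not tested. Median-ratio size factors, other pseudocounts and filters, a block, a fit without trend, a fit to 2 groups and leaving out each library were the alternatives. List genes were matched by deposited or current name, and list genes were named as the largest and the lowest fold change of a list. Members and lists were chosen with earlier results of these data known. No sequences were used.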

Additional observations from a re-analysis of the deposited data

How the results depend on the processing

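Each result was recomputed under 14 other settings. Of 248 member fold changes so obtained, 233 kept their direction and their side of the threshold, 2 passed only there (krt8 and KRT18 (2 of 3) between progesterone morphants and uninjected embryos, without the progesterone library of experiment 1) and 13 turned; the cause was not tested. With median-ratio scaling, krt8, krt18 and KRT18 (2 of 3) turned to 0.25, 0.64 and 0.14 between progesterone and DMSO morphants, and krt5 and krt18 to 0.14 and 0.52 between progesterone morphants and uninjected embryos. A pseudocount of 5 turned krt18 to 0.032 between progesterone and DMSO morphants. Without the DMSO morphant library of experiment 2, krt4 was -0.14 against uninjected embryos (1.65 without that of experiment 1) and krt18 was 0.29 between progesterone and DMSO morphants, and against uninjected embryos krt18 was 0.064 without experiment 1 and -0.51 without experiment 2. Without the progesterone library of experiment 1, krt18 was 0.83 against DMSO morphants and 0.61 against uninjected embryos, and epcam -0.071 against uninjected embryos. Without that of experiment 2 the same 3 values were -0.83, -1.06 and 0.15. Without the 10 ng library epcam was -0.10 there. Leaving out 1 library gave 0 members called in the first and second comparison and 0 to 2 in the third.

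Over all genes, the first comparison called 2 genes and between 0 and 3 with 1 library left out, 0 with a pseudocount of 0.1, 1 with no filter and 1 with a mean of at least 5 FPKM. The second called 0 and between 0 and 4287 with 1 library left out (24 without the progesterone library of experiment 2), 1 with median-ratio scaling and 1 in a fit to the 2 groups. The third called 2 and between 0 and 4555 (62 without that library), 0 with a pseudocount of 0.1, 1 with no filter, 28 with a mean of at least 5 FPKM, 13 with median-ratio scaling and 0 in a fit to the 2 groups. The labels number the experiments in every group, but the uninjected columns of the table carry no such number, so pairing could be coded among the morphant libraries only; what a number marks is not stated. The difference between experiments correlated at 0.0764 across genes between progesterone and DMSO. With that number as a replicate block, 0 members and 2, 0 and 2 genes were called in the 3 comparisons.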
